A study of Mus musculus with 19 samples.

Results

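Whole genome bisulfite sequencing (WGBS) of cystic embryoid bodies (EBs) was compared with that of visceral yolk sac endoderm (ysE). The libraries were taken by label, as the 2 WGBS libraries of d15 cystic EBs and the 2 of E12.5 ysE, which are 4 of the 19 samples of the series. Cystic EBs are hollow, membrane-like aggregates that mouse embryonic stem (ES) cells form in suspension, and the study asked whether they can stand in for ysE. All 4 libraries came from F1 material between the inbred strains CAST/EiJ and FVB/N, 1 library per tissue from each reciprocal cross (CastxFVB, written CxF, and FVBxCast, written FxC). The ysE libraries were made from whole pooled litters at E12.5, with the endoderm layer peeled from the mesoderm after DispaseII treatment. Each cystic EB library was made from a single ES cell clone (CF clone C2 and FC clone A2) after 15 days of differentiation, so clone and cross cannot be told apart. The 2 E12.5 fetal liver WGBS libraries of the same crosses are given as values only.

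In mammals, cytosines of CpG dinucleotides are methylated over most of the genome and mostly unmethylated at CpG-rich promoters. Dnmt3a and Dnmt3b, helped by Dnmt3l, set this pattern as the embryo implants, Dnmt1 with Uhrf1 copies it at cell division, and Tet enzymes oxidise the mark. Tissues of the extra-embryonic lineages, such as the placenta and the yolk sac, are known to keep less methylation than the embryo proper, and inside transcribed genes the body of the gene is usually methylated.

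RNA values came from other material than the WGBS libraries. E12.5 ysE was represented by 1 RNA library and E9.25 ysE by 2, all from FVB mice, and cystic EBs by 4 libraries (d10 and d15) from a pair of ES cell clones on a C57Bl/6x129 background, A9 for replicate A and, as the study's methods name it, JN for replicate B. The E12.5 ysE RNA library was made by a non-stranded method that no other library used, replicate A of the cystic EBs by ScriptSeq, and replicate B and E9.25 ysE by a dUTP method. Tissue and preparation method therefore cannot be told apart in the comparison with E12.5 ysE, so the count of calls among the dUTP libraries alone (cystic EB replicate B against E9.25 ysE) is given for each gene list, with its values for single genes where it ends or turns a call described here or moves a printed fold strongly. It differs from the comparison with E12.5 ysE in the age of the ysE as well, and its cystic EBs are the d10 and d15 libraries of the single clone JN, so its p-values hold no spread between clones.

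The RNA libraries were checked against 7 defining ysE genes (Afp, Ttr, Apoa2, Amn, Cubn, Hnf4a and Dab2). Their summed level was 39644 RPKM in E12.5 ysE, 8898 and 10019 RPKM in E9.25 ysE, and 112 to 1185 RPKM in the 4 cystic EB libraries, where all 7 genes were still above 1 RPKM. Genes of pluripotent cells (Pou5f1, Nanog, Zfp42, Sox2 and Utf1) summed to 89.96 to 187 RPKM in cystic EBs and 2.66 RPKM in E12.5 ysE. Genes of mesoderm and endothelium (Kdr, Pecam1, Cdh5, Tek, Col1a1, Acta2 and Tagln) summed to 63.7 to 178 RPKM in cystic EBs and 8.59 RPKM in E12.5 ysE. Genes of primitive blood summed to 11.3 to 127 RPKM in cystic EBs and 224 RPKM in E12.5 ysE, with 3 of 5 genes above 1 RPKM there. Cystic EBs thus held RNA of several cell types, and methylation is an average over all cells of a library. The part of this mixture in the results below was not tested, and in bulk RNA fewer cells of a type and less RNA per cell cannot be told apart.

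The calls of the 2 strands of a CpG did not match and were separated before any comparison. The files gave 1 row per called cytosine with its percent methylation and its reads, 9248472 and 6695929 reads in ysE (CxF and FxC) and 11554658 and 8475648 in cystic EBs, with a median of 1 read per call. Calls on the plus strand were 99.2% to 99.5% methylated in every library, whatever the tissue, whereas calls on the minus strand followed the tissue. Where the minus-strand cytosine had no methylated read, the plus-strand cytosine of the same CpG was called in 11.4% of cases in cystic EB CxF and 9.39% in ysE CxF. Where the minus-strand cytosine had only methylated reads, these shares were 42.5% and 44.7%. Unmethylated plus-strand cytosines were thus mostly missing from the calls, and all levels below use minus-strand calls, with values of both strands where they matter. Whether minus-strand calls were lost in a similar way could not be measured from these files.

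Promoter sequences of 5 genes are shown because together they span the patterns found: a ysE gene and a glucose transporter gene with few CpGs, a germline gene, an imprinted gene and a CpG-rich housekeeping promoter. Each runs 5′ to 3′ on the strand of the gene, from 250 bases before to 50 bases after the RefSeq start in build GRCm38.p6, and capitals mark each CpG. Afp lies at chr5:90490464-90490763 on the plus strand, Slc2a2 at chr3:28697653-28697952 on the plus strand, Dpep3 at chr8:105979370-105979669 on the minus strand, Snurf at chr7:60005150-60005449 on the minus strand and Cnot9 at chr1:74505810-74506109 on the plus strand.
Afp: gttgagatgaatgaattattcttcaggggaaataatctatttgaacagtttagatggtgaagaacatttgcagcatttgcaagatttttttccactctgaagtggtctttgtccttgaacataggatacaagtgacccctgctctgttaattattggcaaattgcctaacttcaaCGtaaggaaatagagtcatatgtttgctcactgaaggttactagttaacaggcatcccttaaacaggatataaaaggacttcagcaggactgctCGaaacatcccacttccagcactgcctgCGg
Slc2a2: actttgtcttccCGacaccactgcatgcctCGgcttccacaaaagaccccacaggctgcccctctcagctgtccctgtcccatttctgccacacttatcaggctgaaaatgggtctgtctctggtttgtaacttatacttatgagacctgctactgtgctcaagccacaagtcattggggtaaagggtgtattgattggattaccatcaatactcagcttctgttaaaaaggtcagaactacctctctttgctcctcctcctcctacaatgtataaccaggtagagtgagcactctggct
Dpep3: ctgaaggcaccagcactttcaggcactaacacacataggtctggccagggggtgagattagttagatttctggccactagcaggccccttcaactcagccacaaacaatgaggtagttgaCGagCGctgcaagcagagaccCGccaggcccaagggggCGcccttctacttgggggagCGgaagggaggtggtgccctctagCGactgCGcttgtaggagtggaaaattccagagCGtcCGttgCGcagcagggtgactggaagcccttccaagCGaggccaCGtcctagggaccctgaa
Snurf: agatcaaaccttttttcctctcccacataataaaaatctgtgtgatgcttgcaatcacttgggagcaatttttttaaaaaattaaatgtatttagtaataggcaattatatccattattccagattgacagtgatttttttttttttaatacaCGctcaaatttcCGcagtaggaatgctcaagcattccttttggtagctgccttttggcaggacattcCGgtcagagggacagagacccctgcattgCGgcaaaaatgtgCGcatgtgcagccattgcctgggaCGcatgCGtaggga
Cnot9: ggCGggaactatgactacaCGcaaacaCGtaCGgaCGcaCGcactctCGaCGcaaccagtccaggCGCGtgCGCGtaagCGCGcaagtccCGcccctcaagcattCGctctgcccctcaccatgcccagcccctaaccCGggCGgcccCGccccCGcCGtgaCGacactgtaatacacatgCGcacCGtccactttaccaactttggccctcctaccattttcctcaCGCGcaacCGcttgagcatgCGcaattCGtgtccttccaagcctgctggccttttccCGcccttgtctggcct
The windows held 3 CpGs in Afp, 2 in Slc2a2, 12 in Dpep3, 7 in Snurf and 30 in Cnot9. Promoter methylation below is taken over 1 kb to either side of the start, which is wider than the printed stretch.

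Cystic EBs were more methylated than ysE over most of the genome. The level over all minus-strand reads was 81.2% in cystic EB CxF and 75.8% in FxC (78.5% ± 3.84, SD, n = 2), and 56.8% in ysE CxF and 47.0% in FxC (51.9% ± 6.97, SD, n = 2). Both cystic EB values lay above both ysE values, by 24.4 percentage points within CxF and 28.8 points within FxC. An exact two-sided permutation test gave p = 0.33, the smallest that 2 against 2 libraries can give. Liver was at 68.4% and 69.8%, between the tissues. With the calls of both strands the differences were 19.2 and 22.5 points.

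To see where in the genome the difference lay, reads were summed in 10 kb windows on 17 chromosomes, chromosome 15 included, and 148624 windows had at least 10 reads in each of the 4 libraries. The median window was methylated at 83.3% and 78.0% in cystic EBs (CxF and FxC) and at 56.8% and 47.4% in ysE. Cystic EB windows formed a narrow peak, with 73.9% and 56.9% of windows above 75% methylation, whereas 16.6% and 8.86% of ysE windows reached that level. Windows under 25% were 0.157% and 0.352% of cystic EB windows, against 8.50% and 15.6% of ysE windows. The median difference was 24.6 points in CxF and 28.5 points in FxC, and the mean of the crosses ran from −2.59 points at the 5th percentile to 61.3 points at the 95th.

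**Figure D1:**
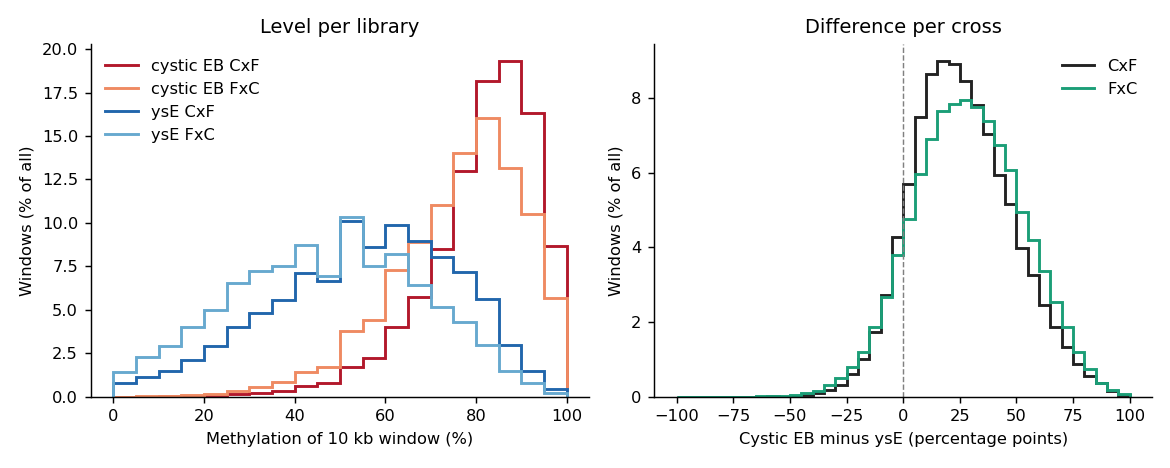
Left, share of the 148624 windows (y axis, %) by methylation level (x axis, %, bins of 5 points) in each of the 4 libraries; right, share of windows by cystic EB minus ysE difference (x axis, percentage points) in each cross. The cystic EB curves peak above 80% and the ysE curves are broad with medians of 56.8% and 47.4%, and most of both difference curves lies to the right of 0.

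Methylation was lower in ysE in both crosses in 80.1% of windows, lower in 1 cross only in 17.3%, and not lower in either cross in 2.59%. It was lower by over 20 points in both crosses in 43.5% of windows and by over 50 points in both in 6.77%. For scale, the 2 cystic EB libraries differed from each other by a median of 10.2 points per window and the 2 ysE libraries by 13.9 points. Besides counting error, these values hold the cross, the ES cell clone in cystic EBs and the genome-wide level of each library. The differences of the 2 crosses had a Pearson correlation of 0.42 over the windows, given as a description, since windows of a cross share its libraries. In edgeR's quasi-likelihood test on methylated and unmethylated reads with Benjamini-Hochberg adjustment, 47856 windows were called lower in ysE (32.2% of those tested) and 33 higher (0.0222%). The calls rested on the full set of libraries, since without 1 of them the count of lower windows was 0, except without ysE CxF, where it was 19847.

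The difference varied with where a window lay. Windows with no gene base had a median difference of 34.0 points, and windows with over 90% of their bases in genes 22.6 points. Cystic EB levels hardly moved between these classes (83.8% and 78.6% outside genes, 84.2% and 78.9% inside), so the gap came with the ysE levels, at 50% and 40% outside genes and 61.6% and 52.6% inside. The same held for the number of CpGs called in any WGBS library, liver included. This count stands in for CpG density and also depends on read coverage. Liver held no calls on chromosome 15, where the median count was 51, against 61 on the other chromosomes. Over 4 groups of windows of about equal size, from the fewest called CpGs to the most, the median difference was 39.2, 28.7, 23.3 and 18.6 points. Across these groups ysE CxF stood at 43.8%, 56.0%, 60.0% and 62.9%, while cystic EB CxF stayed between 82.4% and 84.2%. Sparse windows also hold fewer reads, and the median difference was 32.2 points where the shallowest library had 10 to under 20 reads and 15.8 points where it had 40 to under 80. Windows with an H3K4me3 peak of E12.5 visceral yolk sac went otherwise, at a median difference of 17.9 points against 27.7 points without a peak. Cystic EB levels there were 71.9% and 66.7% against 84.3% and 78.9%. The ysE levels moved less, at 52.8% and 45.7% against 57.1% and 47.6%. Chromosome 15 had the same profile as the rest, with a median difference of 26.9 points against 26.4 points, 32.9% of its 6717 windows called lower in ysE and 2.46% not lower in either cross.

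Chromosomes 3 and 4 stood apart in ysE. Chromosome 4 took 14.1% of the minus-strand reads of ysE CxF, against 6.68% to 7.27% in the other 3 libraries, and its level there was 48.1%, whereas the 15 chromosomes other than 3 and 4 ranged from 55.9% to 60.5%. Chromosome 3 was at 42.3% in ysE FxC, against 46.0% to 49.2% for those 15. Without both chromosomes, 2.83% of windows were not lower in either cross, and 36852 windows were called lower and 26 higher.

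Of the 10 windows with the largest difference, 7 overlapped a gene and 3 did not, and among all 148624 windows 47463 held no gene base. Ranked by the smaller difference of the 2 crosses among windows with at least 30 reads per library, the first lay inside Lsamp, a neuronal cell adhesion gene (chr16:40960001-40970000), at 93.3% and 87.9% in cystic EBs and 15.2% and 10.0% in ysE. The second lay inside Neto1, an auxiliary subunit gene of glutamate receptors, at 87.2% and 83.9% against 9.38% and 8.33%. Windows inside Pcdh9, a protocadherin gene, the O-glycosylation enzyme gene Galnt5, and the lncRNA genes 5730522E02Rik and D130009I18Rik were also among them, and 1 more overlapped the lncRNA gene Gm9875 over 1098 of its 10000 bases. In Pcdh9 the levels were 95.2% and 80.5% against 20.4% and 9.09%. In each of these 10 windows both cystic EB values lay above both ysE values, and none held an H3K4me3 peak of E12.5 visceral yolk sac. Among all 148624 windows, 132261 held no such peak. The 10 windows were picked by their difference and are shown without a test.

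Windows where ysE was not lower were rare, and most did not repeat between crosses. Both crosses put ysE at or above cystic EBs in 3851 of the 148624 windows (2.59%, 95% exact binomial interval 2.51 to 2.67, which covers counting of windows only). In these the median levels were 69.4% and 61.5% in cystic EBs and 79.6% and 73.9% in ysE. They were chosen by their levels, so a fair view comes from the other cross. Windows not lower in CxF (16371, 11% of all) had a median difference of 14.8 points in FxC, where 23.5% were again not lower, against 30.3 points and 10.0% for the remaining windows. Windows not lower in FxC (17082, 11.5%) had a median difference of 12.8 points in CxF, where 22.5% were again not lower, against 26.4 points and 9.52% for the rest. A window chosen in 1 cross thus more often stayed not lower in the other, but most such windows were lower in ysE there. Windows up to 2.5 points inside the limit had median levels of 73.5% and 66.7% in cystic EBs and 78.6% and 73.7% in ysE, and those up to 2.5 points outside it 75.8% and 67.9% against 78.4% and 73.0%.

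The 3851 windows lay in genes and near active promoters more often than the rest. Their median number of gene bases was 10000 of 10000, against 8537 in the other windows, 24.0% held an H3K4me3 peak against 10.7%, and 18.2% held a gene start against 11.1%. Liver, which had no part in the choice, stood at 73.2% and 74.1% in them and at 69.2% and 70.6% in the other windows. Different CpGs can be covered in different libraries, so CpGs called in both tissues of a cross were compared alone, each counted once. Of the 683 windows with at least 5 such CpGs per cross, 32.1% were not lower in either cross at these CpGs. Their median differences were 0.57 points in CxF and 0.00 points in FxC. For the mean of the crosses the median was −1.07 points, and −8.19 points with all calls of these windows. The matched CpGs are part of the calls that chose the windows, so the 32.1% is not an independent repeat. Over all 25734 windows with matched CpGs the medians were 20 and 21.7 points, and 4.77% were not lower in either cross.

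The 33 windows called higher in ysE had median levels of 59.0% and 46.2% in cystic EBs and 90.5% and 87.5% in ysE. Of them 31 overlapped a gene, and among all 148624 windows 47463 held no gene base. The smallest adjusted p was that of a window in Ubr3, a ubiquitin ligase gene (chr2:69940001-69950000), at 8.73% of 126 reads and 24.6% of 114 reads in cystic EBs and 71.4% of 21 reads and 75% of 16 reads in ysE (adjusted p = 0.00183). Both cystic EB libraries were low there and both ysE libraries high, but the window was picked by these values. The medians of the 33 windows likewise come from the values that selected them. The adjustment ran over both directions, so its threshold does not hold for the 33 higher windows taken alone. A window at Otx2, a transcription factor gene of the anterior embryo and of early visceral endoderm, was at 10.1% and 14.3% in cystic EBs and 29.6% and 46.5% in ysE (adjusted p = 0.044). A window at Nkx2-2, a neural and pancreatic transcription factor gene, was at 7.32% and 17.1% against 35.7% and 57.7% (adjusted p = 0.0262). Others overlapped Ctsd, the lysosomal protease cathepsin D, the zinc finger genes Zfp27 and Zfp667, Ubr7, Gaa, the lysosomal alpha-glucosidase, Cirbp, Anp32e and Pfn2. On chromosome 15 the single one lay in Vps13b, at 76.7% and 69.2% against 97.3% and 96.9% (adjusted p = 0.0366). The number of windows called higher was 0 without cystic EB CxF, cystic EB FxC or ysE FxC, and 7 without ysE CxF.

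Ranked by both crosses with at least 30 reads per library, the 10 windows at the low end lay at Pfn2, Anp32e, Snrpa, Actr2, Bcam, Pxmp2 and Pole, Cdh24 and Acin1, Bysl and Med20, Lmf2 and Ncaph2, and in 1 stretch with no gene. Of the 10 windows, 8 held an H3K4me3 peak, beside 16363 of all 148624 windows and 24.0% of the 3851 windows not lower in either cross. The share among windows with at least 30 reads per library was not counted. At Pfn2, which encodes the actin-binding profilin 2, ysE was at 75.8% and 60.6%, cystic EBs were at 41.3% and 24.5%, and liver was at 41.8% and 47.4%.

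Around gene starts methylation dipped in both tissues, and the ysE level was the lower one at every distance up to 5 kb. In the 250 bases before the start it was 29.9% and 29.6% in cystic EBs and 14.1% and 12.7% in ysE, and 4.75 to 5 kb inside the transcript 78.5% and 73.2% against 63.1% and 55.2%.

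**Figure D2:**
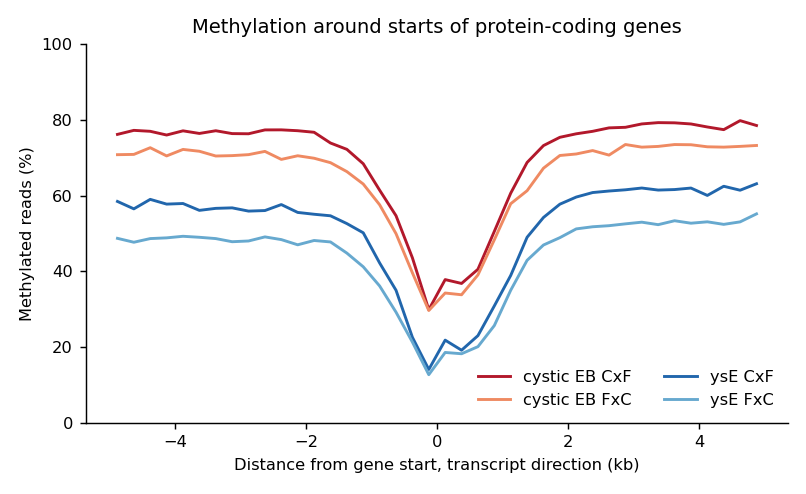
Share of methylated reads (y axis, %) in 250-base bins by distance from gene starts (x axis, kb, along the transcript), 1 line per library over protein-coding genes. All 4 lines dip at the start, to 29.9% and 29.6% in cystic EBs and 14.1% and 12.7% in ysE, and the ysE lines stay below the cystic EB lines throughout.

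Promoters were too thinly covered for a test of single genes. Of 23597 promoters, 863 had at least 10 reads in each library, and edgeR's test with Benjamini-Hochberg adjustment called 0 lower and 0 higher in ysE (0% each); 4 were higher at an unadjusted p under 0.05, and 120 (13.9%) were not lower in ysE in either cross. Levels were therefore pooled over groups of promoters. Promoters with 3 or fewer CpGs in the 300-base window were at 81.5% and 75.6% in cystic EBs and 52.1% and 41.3% in ysE. Those with 4 to 11 CpGs were at 71.6% and 66.6% against 48.1% and 41.6%, and those with 12 or more at 31.1% and 29.3% against 18.0% and 16.5%. Reads inside H3K4me3 peaks of E12.5 visceral yolk sac, a mark of active promoters, were 35.1% and 32.8% methylated in cystic EBs and 17.5% and 15.9% in ysE. Even the CpG-rich group was thus lower in both ysE libraries than in both cystic EB libraries.

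Gene bodies, taken from 1 kb after the start to the end of the gene, gave a measure per gene. Of 20933 bodies, 15169 had at least 10 reads in each library, with medians of 82.4% and 76.8% in cystic EBs and 63.7% and 55.2% in ysE. edgeR's test with Benjamini-Hochberg adjustment called 5677 lower in ysE (37.4%) and 8 higher (0.0527%), and with both strands 5164 and 8. As for windows, the adjustment ran over both directions, so its 0.05 does not hold for the 8 higher bodies taken alone. The 8 were Ctsd, Ctsk, Cirbp, Gm32236, Ndufab1, Ubr7, Zfp27 and Zfp790. For Ubr7 the body was at 48.7% and 45.2% in cystic EBs and 90% and 68.6% in ysE (adjusted p = 0.0174). For Ctsd it was at 65.5% and 27.3% against 91.7% and 94.1% (adjusted p = 0.0173), with 11 to 48 reads per library. For Zfp27 it was at 77.5% and 32.7% against 88.8% and 88.6% (adjusted p = 0.00778), where cystic EB FxC alone stood far from the other 3 libraries. RNA of Ubr7 and Zfp27 did not pass the test between cystic EBs and E12.5 ysE.

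Since 2 of the 8 were zinc finger genes, the 228 measured bodies whose symbol begins with Zfp were described, a set chosen after values were seen and therefore untested. Their median difference was 11.4 points against 18.8 points in the other bodies, 14.5% were called lower in ysE against 37.8%, and 5.70% were not lower in either cross against 3.12%.

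**Figure D3:**
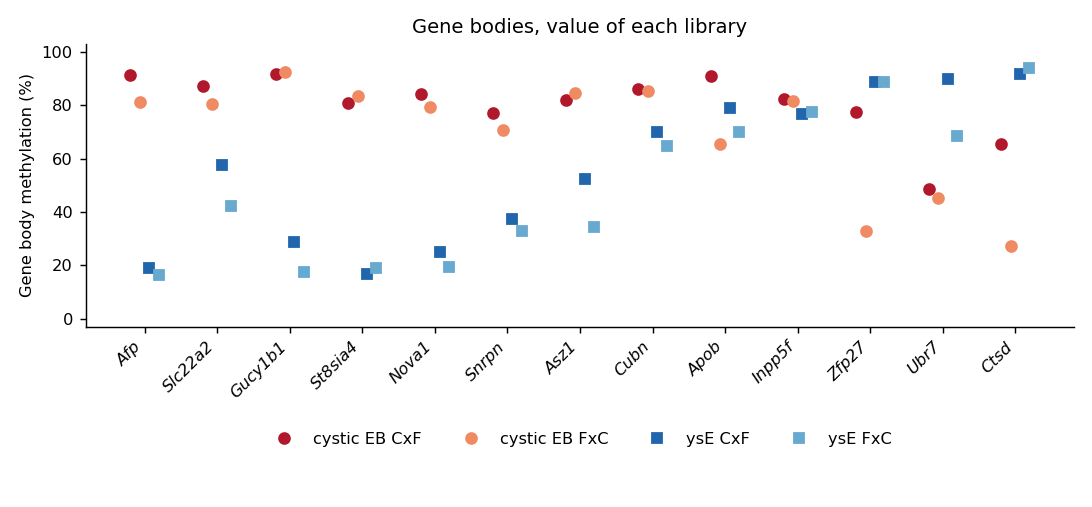
Gene body methylation (y axis, %) of 13 genes named in the text, with circles for the 2 cystic EB libraries and squares for the 2 ysE libraries. In Afp, St8sia4 and Nova1 the ysE values are at most 24.8% and the cystic EB values at least 79.4%, whereas in Zfp27, Ubr7 and Ctsd the ysE values are the higher ones.

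Gene body methylation was next set against RNA. The ysE level was higher in the bodies of genes with more RNA in ysE, and the cystic EB level was not. By RNA in E12.5 ysE (under 0.1, 0.1 to 1, 1 to 10, and 10 RPKM or more), the median body level was 51.1%, 63.6%, 71.7% and 73.4% in ysE CxF and 42.4%, 53.8%, 64.0% and 65.9% in ysE FxC. Cystic EB CxF stayed between 81.8% and 82.6%, and cystic EB FxC between 75.9% and 77.6%. The median difference was 32.1, 19.3, 11.3 and 9.10 points, and the share of bodies called lower in ysE 66.5%, 39.9%, 17.1% and 9.24%, around the 37.4% of all bodies. Liver went from 66.7% and 67.9% in the first class to 77.5% and 78.4% in the last. With E9.25 ysE RNA, which comes from a different preparation method, the median differences were 32.3, 20.3, 11.3 and 8.70 points. Ordered by cystic EB RNA instead, they were 32.8, 24.4, 13.2 and 8.55 points.

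**Figure D4:**
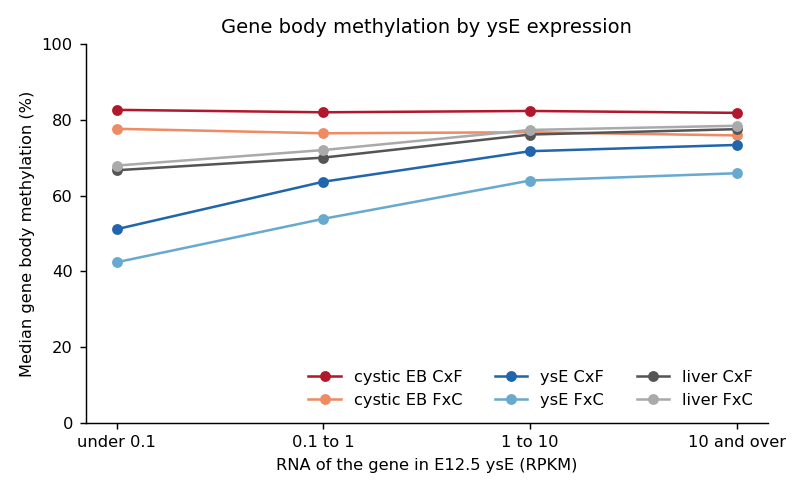
Median gene body methylation (y axis, %) in 4 classes of genes by RPKM in E12.5 ysE (x axis), 1 line per library. The ysE lines go from 51.1% and 42.4% to 73.4% and 65.9%, the liver lines from 66.7% and 67.9% to 77.5% and 78.4%, and the cystic EB lines stay flat.

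Genes were then split by RNA in both tissues. Taking 1 RPKM as the limit, the 5684 genes above it in both tissues had a median body difference of 9.96 points, and 12.4% were called lower in ysE. The 356 genes above it in E12.5 ysE alone had 17.2 points and 31.7%, the 1084 above it in cystic EBs alone 21.4 points and 49.3%, and the 3669 above it in neither 29.8 points and 61.0%. Genes below the limit in ysE thus had larger differences, and so did genes below it in cystic EBs, at either state of the other tissue.

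In edgeR's quasi-likelihood test on counts at an adjusted p under 0.01, cystic EBs had more RNA than E12.5 ysE for 2688 of 24858 transcripts (10.8%) and less for 3106 (12.49%). Among the dUTP libraries 5603 of 23265 transcripts were higher (24.1%) and 4676 lower (20.1%). These are the shares against which counts over gene lists are read below. Over the 9945 genes with a measured body and a tested transcript, the difference in body methylation and the log2 fold change of RNA had a rank correlation of 0.34, over genes that share the same libraries. Over 4 equal groups of genes, from the smallest body difference to the largest, 5.39%, 6.76%, 12.7% and 17.7% had RNA higher in cystic EBs and 14.0%, 15.9%, 15.4% and 7.12% RNA lower, beside 10.6% and 13.1% of all these genes. The median log2 fold change was 0.02, −0.02, 0.29 and 3.12. Genes of the last group were mostly silent, with a median of 0.02 RPKM in E12.5 ysE and 0.29 RPKM in cystic EBs, so that many of their fold changes rest on few reads. Among the dUTP libraries alone the rank correlation was 0.31, and 13.3% of the first group and 40.4% of the last had RNA higher in cystic EBs.

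**Figure D5:**
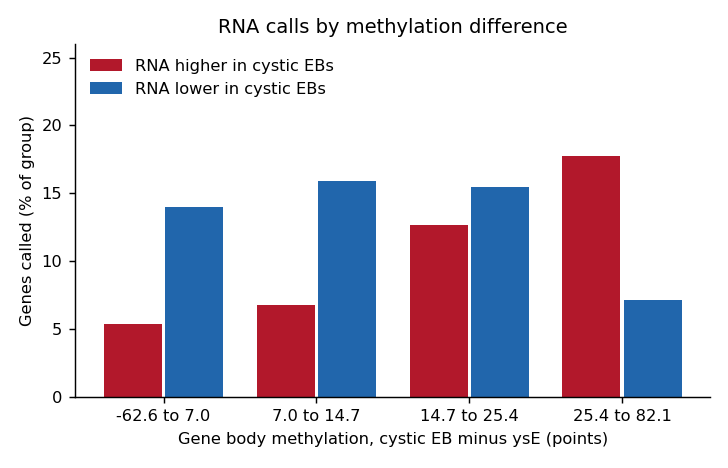
Share of genes called higher (red) or lower (blue) in cystic EBs, against E12.5 ysE, (y axis, % of the group, adjusted p under 0.01) in 4 equal groups of genes by gene body methylation difference (x axis, percentage points). The red bars go from 5.39% to 17.7%, and the blue bars are lowest in the last group, at 7.12%.

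Seen from the RNA side, the 1058 genes with higher RNA in cystic EBs had a median body difference of 22.3 points and 55.7% were called lower in ysE. The 1304 genes with lower RNA in cystic EBs had 13.1 points and 19.2%, and the 7583 genes called in neither direction 14.1 points and 28.8%. Over all these genes together, more methylation in the body in cystic EBs thus did not go with less RNA there. Among genes above 1 RPKM in E12.5 ysE it was otherwise. Those not above it in cystic EBs had a median difference of 17.2 points, against 9.96 points for those above it in both. RNA calls and ysE body levels both varied with RNA in ysE, and these were not separated here.

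At promoters no such relation was seen over single genes, but few promoters had enough reads. At such low read numbers a relation like that of gene bodies could go unseen. The rank correlation over the 565 promoters with 10 reads in each library and a tested transcript was 0.02. The gap between the tissues in pooled reads varied with RNA, most in promoters of medium CpG content. Among promoters with 4 to 11 CpGs, the 381 of genes with lower RNA in cystic EBs were at 64.7% and 57.1% in cystic EBs and 37.6% and 29.9% in ysE, a gap of 27.1 and 27.2 points. The 274 of genes with higher RNA in cystic EBs were at 53.4% and 51.1% against 38.7% and 35.0%, a gap of 14.7 and 16.1 points, and those of genes not called had 22.4 and 23.7 points. With 3 or fewer CpGs the gaps were 34.3 and 37.7 points for lower RNA, 27.9 and 31.0 points for higher RNA and 25.9 and 31.4 points for genes not called. There the gap for higher RNA was smaller than that for lower RNA and near that of genes not called. With 12 or more CpGs the gaps were 16.6 and 15.9 points for lower RNA, 14.6 and 10.1 points for higher RNA and 11.4 points in both crosses for genes not called. These are pooled reads of unequal numbers per gene, and they are given without a test.

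Genes of the methylation machinery had a median body level of 79.1% and 70.6% in cystic EBs and 73.1% and 64.9% in ysE. Of 11 genes, RNA of 3 was higher in cystic EBs (Dnmt3b, Dnmt3l and Tet1) and of 0 lower, beside 10.8% and 12.49% of all transcripts, and 0 of 10 measured bodies were called, beside 37.4% of all bodies. The dUTP libraries gave 4 higher (Dnmt3b, Dnmt3l, Tet2 and Tdg) and 1 lower (Dnmt3a), beside 24.1% and 20.1%. Dnmt3b, a de novo methyltransferase, was at 28.9, 39.3, 12.2 and 17.4 RPKM in the cystic EB libraries (d10 A, d10 B, d15 A, d15 B) and 2.24 RPKM in E12.5 ysE (log2 fold change 3.08 ± 0.63, SE, adjusted p = 0.00437). All 4 cystic EB values were above those of ysE, which was at 7.39 and 8.21 RPKM at E9.25. Against all E9.25 ysE the log2 fold change of Dnmt3b was 1.20 and was not called (adjusted p = 0.0352), and among the dUTP libraries it was 1.52 (adjusted p = 0.00849). Dnmt3l, its cofactor without enzyme activity, was at 6.07 to 30.7 RPKM in the 4 cystic EB libraries and listed at 0 in E12.5 ysE (adjusted p = 0.00323), and it also belongs to the pluripotency list. Tet1, which oxidises methylated cytosine, was at 4.97, 7.10, 3.34 and 2.93 RPKM against 0.74 RPKM (log2 fold change 2.28 ± 0.55, SE, adjusted p = 0.00929). This call was lost against E9.25 ysE (log2 fold change 1.31, adjusted p = 0.0173) and among the dUTP libraries (1.54, adjusted p = 0.0127). The maintenance enzyme Dnmt1 was at 36.3 to 62.3 RPKM against 51.2 RPKM, and its partner Uhrf1 at 11.1 to 53.8 RPKM against 15.6 RPKM, and neither passed the test with E12.5 ysE or among the dUTP libraries.

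Genes of ysE function were next examined as a list. The list (chosen with earlier results of these data known) held 30 genes, with Spink3 also under its other symbol Spink1, and all were tested for RNA, 20 being lower and 3 higher in cystic EBs (the endoderm transcription factors Gata6, Sox7 and Sox17), beside 12.49% and 10.8% of all transcripts. In the dUTP libraries 22 of 29 were lower and 3 higher, and of the genes called against E12.5 ysE the transcription factor gene Foxa2 alone lost its call (adjusted p = 0.0247). Folds were smaller there for Sox7, listed at 0 in E12.5 ysE (log2 fold change 1.70), for Sox17 (3.74, and 8.09 against E12.5 ysE) and for Tex19.1, a germline and placental gene (−0.74, and −3.87 against E12.5 ysE), which was not called against all E9.25 ysE (adjusted p = 0.0682). Pooled over 19 promoters, methylation was 75.8% of 190 reads and 45.2% of 93 reads in cystic EBs. In ysE it was 18.2% of 148 reads and 25.7% of 105 reads. All promoters pooled were at 53.8% and 50.3% against 32.8% and 28.6%, but they were not matched to the list for CpG content. Promoters with 3 or fewer CpGs were at 81.5% and 75.6% against 52.1% and 41.3%. Those with 4 to 11 CpGs were at 71.6% and 66.6% against 48.1% and 41.6%. Only 1 of the 19 promoters had 10 reads in each library, and no test of the list was run. Members differed, with Slc22a3 at 75% of 16 reads in cystic EB CxF and 83.3% of 6 reads in ysE CxF, and Tfpi2 at 50% in both. Of 11 measured bodies 5 were called lower in ysE (Afp, Cubn, Hnf4a, Slc22a2 and Slc22a3) and 0 higher, beside 37.4% of all bodies. Their differences ran from 3.71 to 68.7 points.

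Afp, the fetal serum protein alpha-fetoprotein that ysE secretes, was the extreme case. Its body (chr5:90490714-90508907, whole gene) was methylated at 91.4% of 93 reads and 81.2% of 80 reads in cystic EBs and at 19% of 58 reads and 16.2% of 80 reads in ysE (adjusted p = 1.05e-08). Its promoter, whose 3 CpGs are shown above, was at 84.2% of 19 reads and 54.5% of 11 reads against 0% of 10 reads and 32% of 25 reads. RNA was at 25.8, 35.1, 688 and 212 RPKM in cystic EBs and 35558 RPKM in E12.5 ysE (log2 fold change −7.54 ± 1.29, SE, adjusted p = 0.00174, and −6.07 among the dUTP libraries), and 6071 and 6628 RPKM in E9.25 ysE. The median body of genes at 10 RPKM or more in ysE was at 73.4% and 65.9%, so the Afp body was low in ysE for a gene with this much RNA.

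Cubn, the endocytic receptor cubilin, was at 84.0% of 25 reads and 62.5% of 8 reads at its promoter in cystic EBs and at 0% of 7 and 0% of 9 reads in ysE. Its body was at 86.3% and 85.3% against 70.0% and 64.9% (adjusted p = 0.00902), and its RNA at 9.64 to 38 RPKM against 183 RPKM (log2 fold change −3.60 ± 0.58, SE, adjusted p = 0.00131, and −5.59 among the dUTP libraries). Slc22a2, an organic cation transporter gene with imprinted expression in extra-embryonic tissue, had a body at 87.3% and 80.5% against 57.7% and 42.4% (adjusted p = 0.00214) and RNA at 0.03 to 0.33 RPKM against 24.9 RPKM. In contrast, Lrp2, the cubilin partner megalin, was at 0% at its promoter in all 4 libraries, on 1 to 19 reads, and its RNA was at 12.1 to 29.6 RPKM against 253 RPKM (log2 fold change −4.05, called lower, and −2.82 among the dUTP libraries). For Apob, the main protein of secreted lipoprotein particles, the body was at 91.0% and 65.5% against 79.1% and 70.0% and was not called.

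Slc2a2, the glucose transporter GLUT2, was not on the list and was named as the promoter with the largest difference among genes with lower RNA in cystic EBs. Its promoter, with 2 CpGs in the printed stretch, was at 85.7% of 14 reads and 95.2% of 21 reads in cystic EBs and at 22.2% of 18 reads and 21.4% of 14 reads in ysE. Both cystic EB values were high and both ysE values low. Slc2a2 lies on chromosome 3, which stood apart in ysE FxC. RNA was at 1.52, 0.64, 1.63 and 2.17 RPKM in cystic EBs, 14.1 RPKM in E12.5 ysE and 294 and 288 RPKM in E9.25 ysE (log2 fold change against E12.5 −3.62 ± 0.50, SE, adjusted p = 0.000529, and −8.07 among the dUTP libraries). Wdr63, Tmem106a and Ifngr2 were named by the same rule, with promoters at 29.2% to 78.3% in cystic EBs and 0% to 23.1% in ysE. The fifth, Gm11545, was at 73.3% and 90% against 28.6% and 0%, with RNA at 0.04 to 0.08 RPKM in cystic EBs, 2.11 RPKM in E12.5 ysE, and 0.06 and 0.04 RPKM in E9.25 ysE; its call was lost with the latter (adjusted p = 0.543, and 0.316 among the dUTP libraries). Also among the dUTP libraries, Wdr63 and Ifngr2 were not called (adjusted p = 0.0125 and 0.775).

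Promoters with a gap of the same sign and the opposite RNA direction existed as well. Reck, a membrane inhibitor of metalloproteinases, had a promoter at 35.7% of 28 reads and 83.3% of 12 reads in cystic EBs and 0% of 13 and 0% of 11 reads in ysE, and RNA at 2.04 to 3.03 RPKM in cystic EBs and 0.37 RPKM in E12.5 ysE (log2 fold change 2.37 ± 0.34, SE, adjusted p = 0.000676). Among the dUTP libraries its log2 fold change was 0.31 (adjusted p = 0.18). Reck lies on chromosome 4, which stood apart in ysE CxF. Zfp867, Hnrnpa3, Filip1 and Alpk1 were the others by this rule, and Hnrnpa3 was not called among the dUTP libraries (adjusted p = 0.0155).

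Germline genes are known to be kept silent in somatic cells by promoter methylation. Pooled over 16 promoters of the list, methylation was 75.3% of 259 reads and 69.2% of 201 reads in cystic EBs and 66.2% of 278 reads and 58.2% of 194 reads in ysE, whereas all promoters with 12 or more CpGs were at 18.0% and 16.5% in ysE. Dpep3, a testis dipeptidase gene whose 12 CpGs are shown above, was at 83.3% of 24 reads and 92.3% of 13 reads in cystic EBs and 100% of 9 and 100% of 7 reads in ysE. The promoter of Dazl, a germ cell RNA-binding protein gene, was at 100% of 11 reads and 85.7% of 21 reads in ysE. Other members were lower in 1 or both ysE libraries, with Cpeb1 at 0% of 37 reads in CxF, Zfp42 at 42.9% of 14 and 0% of 5 reads, Tex101 at 80% of 20 but 17.4% of 23 reads, Brdt at 60% and 30% of 10 reads each, and Asz1 at 71.4% of 7 and 33.3% of 12 reads. The pooled level thus covers a wide range of members, and no test of the list was run. RNA of 1 of 19 genes passed the test with E12.5 ysE and was higher in cystic EBs (Ddx4, 1.32 to 2.56 RPKM against 0.04 RPKM) and of 0 lower, beside 10.8% and 12.49% of all transcripts. Among the dUTP libraries 12 of 19 were higher and 0 lower, beside 24.1% and 20.1%. Sycp3, of the synaptonemal complex, was at 3.57 RPKM (d10 A), 6.85 RPKM (d15 A) and 12.6 RPKM (d15 B) in cystic EBs, highest in d10 B with a mean of 10.5 RPKM over the 4, and at 1.26 RPKM in E12.5 ysE and 0.71 and 0.40 RPKM in E9.25 ysE (adjusted p = 0.0391 against E12.5 ysE and 0.000116 among the dUTP libraries). Dazl was at 3.07 and 2.12 RPKM in replicate B of the cystic EBs, 0.16 and 0.26 RPKM in replicate A, and 0.06 RPKM in E12.5 ysE (adjusted p = 0.101, and 0.00023 among the dUTP libraries). Of the other members, Zfp42, which is also on the pluripotency list, reached 29.5 RPKM in cystic EBs.

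Of the 13 measured bodies of germline genes 8 were called lower in ysE, beside 37.4% of all bodies and 66.5% of those of genes under 0.1 RPKM in E12.5 ysE. For Asz1, which acts in piRNA production, the body was at 81.9% and 84.6% in cystic EBs and 52.4% and 34.3% in ysE (adjusted p = 4.28e-05) and RNA was at or below 0.10 RPKM in all 5 of these libraries. Sycp1, of the same complex as Sycp3, was at 76.4% and 67.5% against 42.7% and 33.1% (adjusted p = 0.000796), while its promoter was at 68.6% of 35 reads and 52.0% of 25 reads in ysE. Sycp1 also lies on chromosome 3, which stood apart in ysE FxC.

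Pluripotency genes were called higher in cystic EBs for 5 of 14 members and lower for 0, beside 10.8% and 12.49% of all transcripts, and 0 of 4 measured bodies were called, beside 37.4% of all bodies. With the dUTP libraries 13 of 14 were higher and 0 lower, beside 24.1% and 20.1%, with Prdm14 the member not called (adjusted p = 0.19). Nanog, a transcription factor gene of pluripotent cells, was at 3.19, 30.9, 3.61 and 23.9 RPKM in cystic EBs, listed at 0 in E12.5 ysE and at 0.06 and 0.18 RPKM in E9.25 ysE (adjusted p = 0.0115 against E12.5 ysE and 4.98e-05 among the dUTP libraries). Its values in replicate B were the higher ones. Tdgf1, the Nodal co-receptor Cripto, went against the genome-wide direction at its promoter, at 10.0% of 10 reads and 68.4% of 38 reads in cystic EBs and 80% of 30 reads and 94.4% of 18 reads in ysE, and its RNA was at 31.2 to 58.1 RPKM in cystic EBs and listed at 0 in E12.5 ysE (adjusted p = 8.59e-05). The 2 cystic EB promoter values were far apart, and the difference was not called. Pou5f1, which encodes Oct4, was at 39.1 to 76.8 RPKM against a listed 0 and had 0 to 10 reads at its promoter per library.

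Of 34 imprinted genes, RNA of 3 was higher in cystic EBs (Snrpn, Mest and Cd81) and of 5 lower (Cdkn1c, Inpp5f, Sgce, Pon2 and Phlda2), beside 10.8% and 12.49% of all transcripts, and 9 of 21 measured bodies were called lower in ysE, beside 37.4% of all bodies. The dUTP libraries had 11 higher and 9 lower, beside 24.1% and 20.1%. Sgce, a sarcoglycan gene, was at 13.4 to 27.2 RPKM in cystic EBs and 51.3 RPKM in E12.5 ysE, but at 20.5 and 20.1 RPKM in E9.25 ysE, and lost its call there (adjusted p = 0.119, and 0.268 among the dUTP libraries). Pooled over 28 promoters, methylation was 47.3% of 364 reads and 44.9% of 196 reads in cystic EBs. In ysE it was 54.1% of 560 reads and 47.1% of 280 reads, so the pooled level was not lower there in either cross. All promoters were lower in ysE by over 20 points, and those with 12 or more CpGs by 13.1 and 12.8 points. Members differed, as did their reads per library. Mest was at 100% of 2 and 78.6% of 14 reads in cystic EBs and 44.4% of 9 and 50% of 8 in ysE. Nnat went the other way, at 88.9% of 36 and 68.4% of 19 reads against 96.3% of 54 and 92.3% of 13 reads. Only 1 of the 28 promoters had 10 reads in each library, and no test of the list was run.

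Snrpn, whose paternal allele encodes a splicing protein, and Snurf, the upstream reading frame of the same transcript, share a locus and their RNA values. The Snurf promoter, with 7 CpGs in the printed stretch and added after its values were seen, was at 14.3% of 7 reads and 0% of 5 reads in cystic EBs and 95.7% of 23 reads and 100% of 6 reads in ysE. The Snrpn body was measured from the 5′-most of its 4 RefSeq starts (chr7:60450177). It therefore spans the Snurf promoter and lies mostly upstream of it. This body was at 77.2% and 70.7% in cystic EBs and 37.2% and 32.7% in ysE (adjusted p = 2.33e-05). RNA was at 20.6, 41.1, 14.2 and 36.9 RPKM in cystic EBs and 0.13 RPKM in E12.5 ysE (log2 fold change 7.39 ± 0.82, SE, adjusted p = 0.00017), and 1.21 and 1.55 RPKM in E9.25 ysE (log2 fold change among the dUTP libraries 4.46). The Snurf promoter values rest on few reads in cystic EBs. The window at the 5′-most Snrpn start, far upstream, had 4 reads in the 2 cystic EB libraries and 3 in ysE. Alleles were not separated here.

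Mest, a paternally expressed hydrolase gene, had a body at 90.6% and 96.6% against 71.2% and 64.9% (adjusted p = 0.00159) and RNA at 54.2 to 134 RPKM against 1.07 RPKM in E12.5 ysE (log2 fold change 6.02 ± 0.72, SE, adjusted p = 0.000251). E9.25 ysE was at 18.4 and 22.9 RPKM, so the log2 fold change was 1.66 against it (adjusted p = 0.0072) and 1.69 among the dUTP libraries (adjusted p = 0.00242). Inpp5f, a phosphoinositide phosphatase gene, had the smallest body difference of the list, at 82.4% and 81.5% against 76.6% and 77.5%, and RNA at 8.24 to 14.6 RPKM against 34.1 RPKM (log2 fold change −1.91 ± 0.27, SE, adjusted p = 0.000581). On chromosome 15, the body of Slc38a4, an amino acid transporter gene, was at 87.3% and 78.5% against 68.7% and 64.4%, while its promoter was at 19.2% of 26 reads and 44.4% of 9 reads in cystic EBs and 79.5% of 44 reads and 60.0% of 5 reads in ysE.

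In Hox cluster genes, the transcription factors of the body axis, 8 of 22 bodies had enough reads. RNA of 0 of 37 tested members was called in either direction, beside 10.8% and 12.49% of all transcripts, and 1 of 8 measured bodies was lower in ysE, beside 37.4% of all bodies. With dUTP libraries alone 1 of 33 was higher (Hoxd1, adjusted p = 0.00986) and 0 lower, beside 24.1% and 20.1%. The median body was at 39.1% and 56.3% in cystic EBs and 34.1% and 30% in ysE, against 82.4% and 76.8%, and 63.7% and 55.2%, over all bodies. Members varied, from Hoxb8 at 5% and 0% in cystic EBs to Hoxd4 at 88.5% and 62.5%. For Hoxa3 the body was at 38.9% and 53.1% against 31.8% and 28.9%, and for Hoxd3 at 80.5% and 59.4% against 33.3% and 31.1%.

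Of 13 markers of mesoderm, endothelium and blood, RNA of 5 was higher in cystic EBs and of 1 lower, beside 10.8% and 12.49% of all transcripts, and all 3 measured bodies were lower in ysE, beside 37.4% of all bodies. The dUTP comparison had 3 higher and 6 lower, beside 24.1% and 20.1%. Gata1, an erythroid transcription factor gene, turned its direction, at 0.11 to 0.17 RPKM in cystic EBs, 0.01 RPKM in E12.5 ysE and 0.41 and 0.46 RPKM in E9.25 ysE (adjusted p = 0.00413 and, among the dUTP libraries, 0.000405). For Pecam1, an endothelial adhesion gene, the log2 fold change was 6.68 against E12.5 ysE and 1.97 among the dUTP libraries. Kdr, a VEGF receptor, was at 86.3% and 88.5% in cystic EBs and 60.7% and 71.2% in ysE (adjusted p = 0.00599), Tek, the angiopoietin receptor, at 90.1% and 75.4% against 47.4% and 49.2% (adjusted p = 3.01e-05), and Tal1, a blood transcription factor, at 54.8% and 58.3% against 29.9% and 17.1% (adjusted p = 0.0296). RNA of Kdr and Tek was called against E12.5 ysE, at 2.36 to 19 RPKM against 0.05 RPKM and 1.57 to 9.72 RPKM against 0.06 RPKM, and among the dUTP libraries neither was called (adjusted p = 0.252 and 0.341). Tek and Tal1 lie on chromosome 4.

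Beyond the lists, genes with the largest body differences among those with higher RNA in cystic EBs were chosen after values were seen and are described only. Gucy1b1, a subunit of the nitric oxide receptor guanylate cyclase, was at 91.7% and 92.6% in cystic EBs and 28.8% and 17.3% in ysE, with RNA at 0.46 to 2.74 RPKM against 0.04 RPKM, a difference not called among the dUTP libraries (adjusted p = 0.124). St8sia4, a polysialyltransferase gene, was at 80.7% and 83.6% against 16.7% and 19%, with RNA at 0.56 to 1.72 RPKM against 0.02 RPKM. Nova1, a neuronal splicing factor gene, had a nearly unmethylated promoter in all 4 libraries (0% to 7.14%) and a body at 84.4% and 79.4% against 24.8% and 19.4%. In the opposite RNA direction, F11, coagulation factor XI, had a body at 82.0% and 89.7% against 41.1% and 47.4%, with RNA at 0 to 0.03 RPKM in cystic EBs and 5.6 RPKM in E12.5 ysE, although it was listed at 0 in both E9.25 ysE libraries.

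Genes whose body was not lower in ysE in either cross numbered 479 of 15169 (3.16%) and were found with both RNA directions; the examples were chosen after their values were seen. With lower RNA in cystic EBs these included Clptm1 (66.0% and 55.8% against 79.4% and 76.1%) and Gaa (61.9% and 56.0% against 74.4% and 88.2%). With higher RNA in cystic EBs they included Anp32e, a histone H2A.Z chaperone gene (64.4% and 51.1% against 79.0% and 61.2%), and Wsb1, a ubiquitin ligase adaptor gene (78.2% and 67.7% against 83.3% and 75%). In each of these 4 genes RNA in E12.5 ysE was above 1 RPKM.

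Among the 47 promoters with at least 20 reads in each library, 23 were lower in ysE in both crosses and 10 in neither. The largest difference was at Wdr31, a WD repeat protein gene with 22 CpGs in the 300-base window, at 58.6% of 29 reads and 54.2% of 24 reads in cystic EBs and 15.6% of 32 reads and 15.0% of 20 reads in ysE. The other 9 at that end were Gm42298, Mapkapk5, Gm28382, Brinp1, Gm46490, Dcun1d1, Gm12996, LOC115488029 and Gm34746, and Wdr31 was 1 of 5 that lie on chromosome 4, which stood apart in ysE CxF. Of the 4 with a tested transcript none had RNA called against E12.5 ysE (adjusted p = 0.0151 to 0.496).

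The 10 promoters at the low end of the ranking by difference were of several kinds. Those of Cnot9, Usp37, Cox6a1 and Cdc5l were CpG-rich and at most 17.9% methylated in each of the 4 libraries. Those of Gm29936, Stard10, Gm39701 and Gm38946, with 1, 4, 4 and 11 CpGs in the 300-base window, were at 75.7% to 100% in each library. Fam240a and Tpt1 lay between, with both ysE values above the cystic EB value of the same cross. Cnot9, a subunit of the CCR4-NOT deadenylase whose 30 CpGs are shown above, was at 3.12% of 32 reads and 0% of 33 reads in cystic EBs and 3.85% of 26 reads and 3.12% of 32 reads in ysE. Its neighbour Usp37 shares this region and nearly all of these reads. Stard10, a lipid transfer protein gene, was methylated in all 4 libraries (90.3% and 83.8% against 95.7% and 88.5%), although its RNA was at 14.7 to 29.7 RPKM in cystic EBs and 212 RPKM in E12.5 ysE and was called lower in cystic EBs.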

How the data were processed

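The authors aligned reads to mm10 with GSNAP, called CpG methylation with BisSNP and deposited, per cytosine and strand, the percent methylated and the count of reads. They also deposited raw counts and RPKM per RefSeq transcript and MACS 1.4.2 peaks with a score, of which positions alone were used. The positions of repeat elements outside genes and the exon counts were deposited too and bear on no printed result.

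Methylated reads were recovered as percent times reads, for minus-strand cytosines, a choice made after the strands were seen to differ. Not analysed here were chromosomes X, Y and 19, and chromosome 13 had 0 to 13 calls per library. Windows of 10 kb, gene bodies and promoters (1 kb to either side of the start) with at least 10 reads in each of the 4 libraries were tested in R 4.3.3 with edgeR 4.0.16 (quasi-likelihood, methylated and unmethylated reads, a library effect, adjusted p under 0.05). Median reads per call were 1, and neighbouring CpGs share reads, so intervals and p-values treat as separate what is partly one read; the test's spread comes from 2 libraries per tissue. RNA counts were filtered by filterByExpr, scaled by TMM and tested with edgeR over 5 tissues (adjusted p under 0.01), which lends the lone E12.5 ysE library the spread of the other tissues. The RNA libraries held 40453779 to 169981821 counts. DESeq2 1.42.0 was an alternative. The fit on the dUTP libraries alone, calls of both strands, matched CpGs, leaving out chromosomes 3 and 4, leaving out a library for the genome-wide level, the tests of gene bodies and promoters, and the reference fit for the letter block were added after the data were seen. Only the main test of windows and the main test of RNA were also run on simulated data with known differences, and no result printed here rests on those runs. Gene positions and promoter sequences came from RefSeq, build GRCm38.p6, and 84.4% of the 30455 transcripts matched a gene on the chromosomes analysed. Genes were represented by the transcript with the highest mean count. Promoters and bodies were placed by the 5′-most RefSeq start of a gene, which need not be the start in use.

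Members and lists were chosen with earlier results of these data known. Named were the list members with extreme values, the 10 windows at each end with 30 reads per library, the 10 promoters at each end with 20 reads, and for each RNA direction the 5 called genes with the largest promoter difference; others are said to be chosen after their values were seen. CxF and FxC pair libraries by cross, and the fit with the cross as a block is given under the alternatives.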

Additional observations from a re-analysis of the deposited data

How the results depend on the processing

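With 2 libraries per tissue, counts of called windows depend on the settings far more than the size of the difference does. Windows called lower in ysE numbered 47856, and 227 after centring on the genome-wide difference, 100518 by Fisher's exact test on summed reads, 19272 with at least 20 reads, 8344 in 5 kb windows, and 0 to 19847 without 1 library. With the cross as a replicate block they numbered 57272, and windows called higher 64. Windows called higher numbered 33, and 96 when centred, 900 by Fisher's exact test, 11 in 5 kb and 12 in 20 kb windows, and 0 to 7 without 1 library. The median window difference was 26.4 points, and 29.5 points with at least 5 reads, 21.4 with at least 20, 21.9 in 5 kb and 29.9 in 20 kb windows, 21.6 with both strands and 21.6 at matched CpGs, and 21.8 to 30.8 without 1 library. Windows not lower in either cross were 2.59%, and 2.35% with at least 5 reads, 3.07% with at least 20, 4.75% in 5 kb and 1.23% in 20 kb windows, 3.02% with both strands, 2.83% without chromosomes 3 and 4, 4.77% at matched CpGs and 5.04% with the limit at 5 points. The genome-wide difference was 26.6 points, 20.8 with both strands, and 21.7 to 31.5 without 1 library.

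For RNA, 2688 transcripts were higher in cystic EBs, and 4140 against E9.25 ysE, 783 with only cystic EBs and E12.5 ysE in the fit, 4587 by DESeq2, and 5603 among the dUTP libraries. Those lower numbered 3106, 1133 with only the 2 tissues and 4676 among the dUTP libraries. Against E9.25 ysE with the letter as a replicate block 4279 were higher and 4368 lower, beside 4205 and 3948 for the same libraries without it. The cause of these changes was not tested. The rank correlation of gene bodies with RNA was 0.34, and 0.33 with at least 5 reads, 0.36 with at least 20, 0.30 in CxF and 0.31 in FxC, 0.34 with d15 cystic EBs only, 0.37 with E9.25 ysE, 0.33 with both strands and 0.31 among the dUTP libraries. The share of the last group (largest body difference) with RNA higher in cystic EBs was 17.7%, 29.0% with E9.25 ysE and 40.4% among the dUTP libraries. At promoters the rank correlation was 0.02, 0.041 over the 3112 genes with at least 5 reads, 0.063 over the 3873 with 2 kb to either side of the start, −0.070 over the 21 with at least 20 reads, −0.035 in CxF and 0.057 in FxC, and −0.051 among the dUTP libraries. No setting reversed the genome-wide direction. The replicate blocks assume that CxF and FxC, or the letters, pair samples, which the labels give for the cross alone.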
